A study of Mus musculus with 8 samples.

Results

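The healer strains LG/J, MRL/MpJ and LGXSM-6 were compared with the non-healer strains SM/J, C57BL6/J and LGXSM-33 in the expression of 67 mRNAs of the knee joint. The question was which mRNAs lay on 1 side in every healer and on the other side in every non-healer. The members were chosen by the healing capacity that the labels give each strain, and not by expression: 6 of the 8 samples were used, and the intermediate lines LGXSM-5 and LGXSM-35 were left out. The strain was the unit, with 3 on each side.

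All mice of the 6 strains had the same operation, a full-thickness defect of the articular cartilage at 8 weeks of age, and no unoperated knee was measured. The study's methods give 3 to 4 mice per strain, with joints taken 16 weeks after surgery, and 25 formalin-fixed, paraffin-embedded sections per strain. The tissue cut from the sections was a mixture of articular and growth plate cartilage, meniscus, bone beneath the cartilage, capsule and synovium, so that fewer cells of a type and less RNA per cell cannot be told apart. No allele was engineered in any strain, and the groups differ by inbred background. The strains of a side are not unrelated. MRL/MpJ descends in large part from LG/J, and LGXSM-6 and LGXSM-33 are recombinant inbred lines, each a fixed mosaic of LG/J and SM/J.

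Expression was read by a QuantiGene Plex assay, in which probes on coded beads capture an mRNA from the homogenate and branched DNA on the captured mRNA gives the signal. The 6 strains have 58 assay replicates in the first panel (33 mRNAs) and 60 in the second (34 mRNAs), with 8 to 12 per strain in the first and 9 to 12 in the second. Which of them come from the same mouse is not given. A normalized level here is the log10 signal that remains after regression on the reference genes of the panel, so 0 stands for the signal that those genes predict. The regression behind the deposited values of the second panel was not reproduced exactly here. Signals of the 67 mRNAs ran from 2 to 29383. A strain value is the mean over its assay replicates, and an SD beside it is the spread over those replicates, not over mice.

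Repair of a joint defect involves cells that divide and lay down matrix. Cells that divide copy their DNA with the sliding clamp PCNA, and broken strands are mended by recombination proteins such as XRCC2. Chondrocytes and osteoblasts of the joint answer to Hedgehog and Wnt signals, while autophagy, cytokines and adipokines are known to act on cartilage that ages or is injured.

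Of the 67 mRNAs, 9 (13.4%) had strain means that did not overlap between healers and non-healers. In 7 (10.4%) all healers lay above all non-healers: *Xrcc2*, *Pcna*, *Ihh*, *Runx2*, *Axin2*, *Il6* and *Cxcl12*. In 2 (2.99%), *Lep* and *Map1lc3a*, all healers lay below. The group means of these 9 differed by 1.12- to 1.44-fold. The exact permutation test over strains, two-sided, gave each of them P = 0.1, the smallest value that 3 strains against 3 can give (20 assignments). The non-overlap itself fixes this P. If strains were exchangeable, an mRNA would separate the groups with a probability of 0.1. The 13.4% found is near that share. In limma across all mRNAs, 4 (5.97%) passed an unadjusted P of 0.05 and 0 (0%) passed after Benjamini-Hochberg adjustment, with a smallest adjusted P of 0.57 by limma. Those 4 were *Xrcc2*, *Pcna* and *Runx2* among the 9, and *Ccl3*, whose strains overlapped. The count and its split moved with the normalization. Ratios to the reference genes gave 17 non-overlapping mRNAs, 4 higher and 13 lower in healers. Signals without normalization gave 13, all higher, and medians over assay replicates gave 10, with 5 on each side. Separations and ranks below are those of the values as deposited unless another processing is named.

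**Figure D1:**
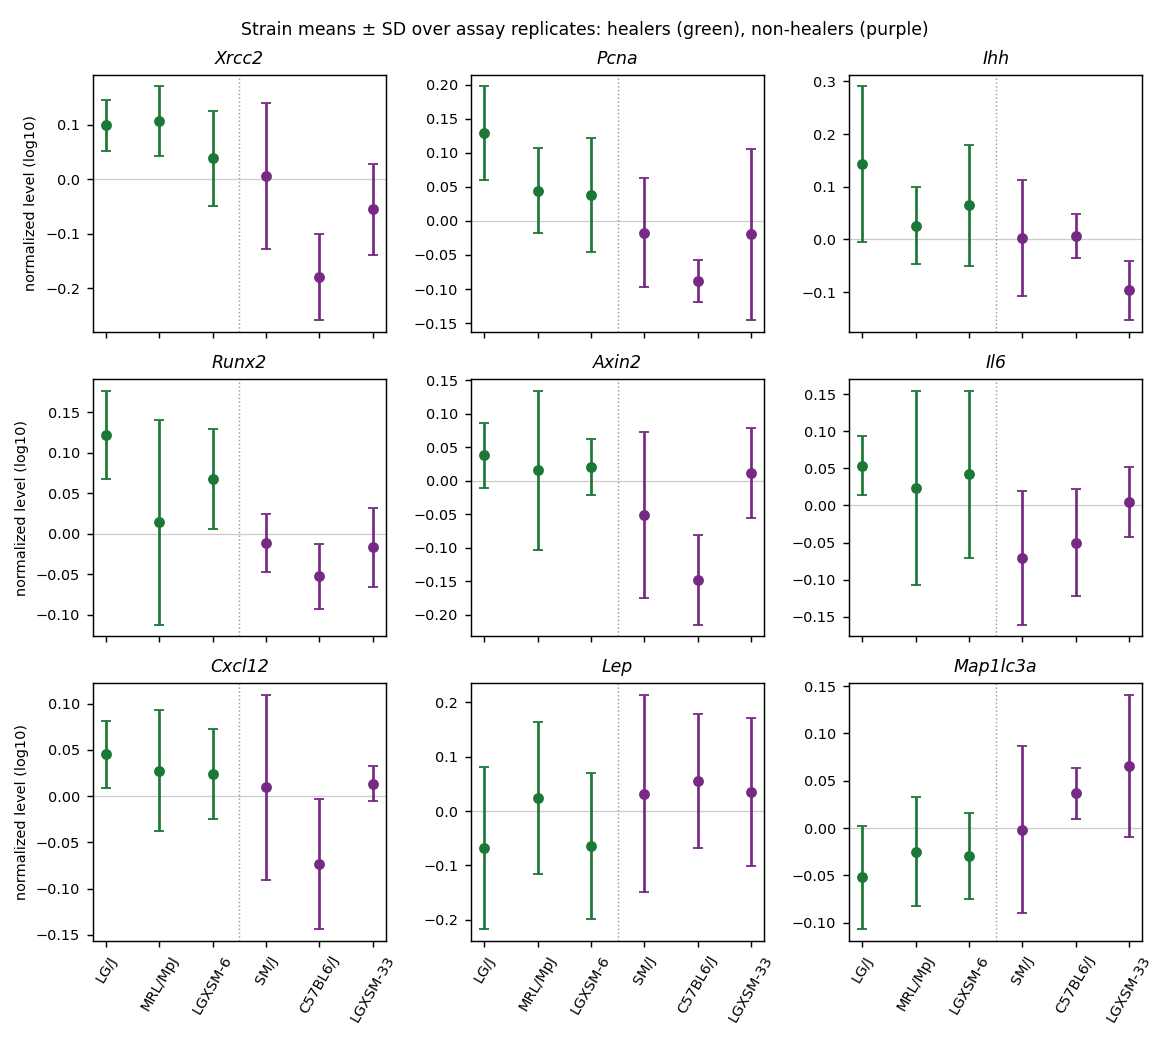
Normalized level (log10, vertical axis) of the 9 mRNAs in the 3 healer (green) and 3 non-healer (purple) strains. Points are strain means and bars the SD over 8 to 12 assay replicates. Every green point of the first 7 plots lies above every purple point, and the reverse holds for *Lep* and *Map1lc3a*, while the bars of the 2 groups overlap in each plot.

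Promoters are shown for *Pcna* and *Runx2*, which had the smallest limma P among the 9 after *Xrcc2*. RefSeq's table of promoters (GRCm38.p6, the C57BL/6J reference) lists a window for 7 of the 9 and none for *Xrcc2* and *Map1lc3a*. The 250 bases before the start are given 5′ to 3′ on the strand of the gene. Capitals mark the CCAAT box (CCAAT) and the half-site of the cyclic AMP response element (TGACG) in *Pcna*, and the RUNX word (TGTGGT) in *Runx2*, each read on both strands.
Pcna, chr2:132253181-132253430, minus strand: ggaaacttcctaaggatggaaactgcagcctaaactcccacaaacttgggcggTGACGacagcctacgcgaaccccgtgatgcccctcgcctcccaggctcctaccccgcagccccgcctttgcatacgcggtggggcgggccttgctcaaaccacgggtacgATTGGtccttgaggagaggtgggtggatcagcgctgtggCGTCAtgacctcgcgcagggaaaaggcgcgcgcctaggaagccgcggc
Runx2, chr17:44814628-44814877, minus strand: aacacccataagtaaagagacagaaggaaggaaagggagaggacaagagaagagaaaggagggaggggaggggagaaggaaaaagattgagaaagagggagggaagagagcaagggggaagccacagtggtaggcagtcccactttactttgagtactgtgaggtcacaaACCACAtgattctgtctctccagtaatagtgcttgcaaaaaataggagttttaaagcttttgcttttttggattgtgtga
The *Pcna* window held 1 CCAAT box and 2 half-sites, and the *Runx2* window 1 RUNX word. Among the 32841 windows of the same length, 33.86% held a CCAAT box, 17.77% the half-site and 14.05% the RUNX word. The half-site was also in the windows of *Il6*, *Ihh* and *Cxcl12*. A CCAAT box was also in that of *Il6*. The E2F word (TTTCCCGC), in 0.895% of all windows, was in none of the 7. The TCF/LEF word (ATCAAAG), in 3.21%, was in that of *Cxcl12* and not in that of *Axin2*. The words do not overlap each other in the printed windows. The sequence is that of 1 strain, and which bases differ in the other 5 was not analysed here.

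*Pcna* encodes the clamp that holds DNA polymerase on its template. Its normalized level was 0.129 ± 0.0686 in LG/J, 0.0445 ± 0.062 in MRL/MpJ and 0.0377 ± 0.0833 in LGXSM-6 (SD over assay replicates). In the non-healers it was −0.0175 ± 0.0797 in SM/J, −0.0881 ± 0.0314 in C57BL6/J and −0.0199 ± 0.126 in LGXSM-33. LG/J stood clear of the other healers, and C57BL6/J was lowest. The healer mean was 0.112 above the non-healer mean on the log10 scale (limma SE 0.0404), or 1.29-fold, with an unadjusted P of 0.0273. The difference was 0.0887 with medians over assay replicates (unadjusted P = 0.118 by limma). It was 0.0829 without LG/J and 0.0891 without C57BL6/J (unadjusted P = 0.0933 and 0.0927 by limma). The nearest strains of the 2 groups, LGXSM-6 and SM/J, were 0.0552 apart with an SE of 0.0358 over assay replicates. This was the widest gap of the 9. It exceeded this SE but not the SE of 0.0616 taken over means of consecutive sets of 3 assay replicates, which resembled each other.

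*Xrcc2*, which encodes a protein of DNA repair by homologous recombination, had the largest difference of the 9 with the values as deposited. *Pcna* had a larger one without normalization, and *Pcna*, *Lep* (−0.301) and *Map1lc3a* (−0.207) as ratios, where *Xrcc2* had 0.206. The level of *Xrcc2* was 0.0987 ± 0.0469 in LG/J, 0.107 ± 0.0637 in MRL/MpJ and 0.0385 ± 0.0867 in LGXSM-6. It was 0.00527 ± 0.134 in SM/J, −0.179 ± 0.079 in C57BL6/J and −0.0549 ± 0.083 in LGXSM-33. Among the 7 mRNAs higher in healers, this was the one in which MRL/MpJ and not LG/J was highest. The groups differed by 0.158 (limma SE 0.0528; unadjusted P = 0.0203), or 1.44-fold. C57BL6/J lay far below the other strains. Without C57BL6/J the difference was 0.106, beside 0.125 for *Ihh*. Without MRL/MpJ and C57BL6/J it was 0.0935 for *Xrcc2*, and *Ihh* (0.151), *Runx2*, *Pcna* and *Lep* had larger ones. The signal of *Xrcc2* was low, with a median of 19.2 over assay replicates and strain medians of 10 to 11.5 in the non-healers against 20 to 42.8 in the healers.

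*Pcna* and *Xrcc2* were 2 of the 5 mRNAs listed for DNA repair and replication. The other members did not separate the groups: the differences were 0.0249 for the damage-binding *Xpa*, 0.0165 for the Fanconi anaemia gene *Fancc* and −0.0233 for the polymerase *Polq*. The median of the list was 0.0249, against 0.00907 over all 67.

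*Ihh* encodes Indian hedgehog, which prehypertrophic chondrocytes of the growth plate secrete. Its level was 0.143 ± 0.147 in LG/J, 0.0262 ± 0.0732 in MRL/MpJ and 0.0649 ± 0.115 in LGXSM-6, against 0.00338 ± 0.11 in SM/J, 0.00644 ± 0.0415 in C57BL6/J and −0.0967 ± 0.0563 in LGXSM-33. MRL/MpJ was close to SM/J and C57BL6/J, and the separation of the means came mainly from LG/J and LGXSM-33. The difference was 0.107 (limma SE 0.0465; unadjusted P = 0.0549), or 1.28-fold. The gap of 0.0198 between MRL/MpJ and C57BL6/J is smaller than the 0.0328 by which 1 more unit of signal moves the level at the median signal of 12.8. Of the 5 growth plate and growth factor mRNAs *Ihh* was the only one with a higher mean in healers. *Fgf18*, a chondrocyte growth factor, had a difference of −0.0724, and *Igf1*, the insulin-like growth factor, one of −0.0467.

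*Runx2*, the transcription factor that osteoblasts and hypertrophic chondrocytes need, was at 0.122 ± 0.0548 in LG/J, 0.014 ± 0.126 in MRL/MpJ and 0.0671 ± 0.0618 in LGXSM-6. The non-healers were close together, at −0.0114 ± 0.0356 in SM/J, −0.0527 ± 0.0401 in C57BL6/J and −0.0169 ± 0.0489 in LGXSM-33. The difference was 0.0945 (limma SE 0.0384; unadjusted P = 0.0435), or 1.24-fold. Without LG/J it was 0.0675 (unadjusted P = 0.144 by limma). The 3 healers thus spread more widely than the 3 non-healers, with an SD over strains of 0.0538 against 0.0224. Over the 6 strains the bone matrix mRNAs did not follow *Runx2*. The difference was −0.0391 for collagen I (*Col1a1*) and −0.00732 for osteocalcin (*Bglap1*), and both overlapped. Without MRL/MpJ and C57BL6/J, *Bglap1* separated the groups with a difference of 0.114, beside 0.108 for *Runx2*. MRL/MpJ minus C57BL6/J was −0.249 for *Bglap1*.

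*Axin2* encodes a scaffold of the complex that degrades beta-catenin, and is itself a target of Wnt signalling. Its levels in the healers lay close together, at 0.0382 ± 0.0487 in LG/J, 0.0158 ± 0.119 in MRL/MpJ and 0.0207 ± 0.0417 in LGXSM-6. LGXSM-33, at 0.0116 ± 0.0669, was within 0.00419 of MRL/MpJ, whereas SM/J was at −0.0517 ± 0.124 and C57BL6/J at −0.147 ± 0.067. The SE of this gap over assay replicates was 0.044. The difference of 0.0874 (limma SE 0.0456; unadjusted P = 0.0967), or 1.22-fold, was 0.045 without C57BL6/J. Of the 7 Wnt mRNAs *Axin2* alone separated the groups, and 5 had a higher mean in healers, beside 38 of all 67. The ligand *Wnt16* came next by the pairs of a healer and a non-healer in order, 8 of 9. It was at 0.0989 in LG/J, 0.048 in MRL/MpJ, −0.0177 in LGXSM-6, −0.0728 in SM/J, −0.0376 in C57BL6/J and 0.00486 in LGXSM-33. Only the recombinant lines broke its order, by 0.0226 (SE 0.0539). This is under the 0.0263 that 1 unit of signal is worth at its median signal of 16. Its difference of 0.0782 was 0.0297 with medians over assay replicates and 0.0503 without LG/J. The groups were apart with residuals recomputed over the 6 strains (0.094), without LGXSM-6 (0.109) and without LGXSM-33 (0.0982).

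*Il6*, the cytokine of the acute phase, was at 0.0538 ± 0.0399 in LG/J, 0.0235 ± 0.131 in MRL/MpJ and 0.0421 ± 0.112 in LGXSM-6. It was at −0.0702 ± 0.0903 in SM/J, −0.0504 ± 0.0719 in C57BL6/J and 0.00472 ± 0.0473 in LGXSM-33. The healers kept to a narrow range, and LGXSM-33 came nearest to them. The difference was 0.0784 (limma SE 0.0341; unadjusted P = 0.055), or 1.2-fold. *Il6* had the lowest signal of the 9. Its strain medians ran from 10 to 17 in healers and from 6 to 8.75 in non-healers, and 1 unit of signal at its median of 9 is worth 0.0458, more than the gap of 0.0188.

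*Cxcl12*, the chemokine that retains CXCR4-bearing cells in the marrow, had the strongest signal of the 9, with a median of 1197, and the smallest difference. Its level was 0.0451 ± 0.0364 in LG/J, 0.0276 ± 0.0653 in MRL/MpJ and 0.0237 ± 0.0486 in LGXSM-6, against 0.00956 ± 0.0999 in SM/J, −0.0733 ± 0.0704 in C57BL6/J and 0.0134 ± 0.0189 in LGXSM-33. C57BL6/J stood apart and the other 5 strains lay within a narrow band. The difference was 0.0489 (limma SE 0.0362; unadjusted P = 0.219), or 1.12-fold, 0.0207 without C57BL6/J, and 0.0229 without MRL/MpJ and C57BL6/J. The other 6 inflammatory mRNAs overlapped. The chemokine *Ccl3* had the lowest difference of the 67, −0.117 (limma SE 0.0484; unadjusted P = 0.0466). It was at −0.106 in LG/J, −0.17 in MRL/MpJ and −0.0592 in LGXSM-6, and at 0.0606 in SM/J, 0.0266 in C57BL6/J and −0.0728 in LGXSM-33, so that only the 2 recombinant lines crossed. With residuals recomputed over the 6 strains the difference was −0.0628 (unadjusted P = 0.336 by limma), and in the cross of LG/J and SM/J by itself −0.0766. The groups were apart with medians over assay replicates (−0.119), without LGXSM-6 (−0.143) and without LGXSM-33 (−0.156).

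*Map1lc3a*, which encodes an LC3 protein of the autophagosome membrane, was lower in healers. Its level was −0.0522 ± 0.0545 in LG/J, −0.0249 ± 0.0572 in MRL/MpJ and −0.0296 ± 0.0451 in LGXSM-6, and −0.00172 ± 0.0883 in SM/J, 0.0365 ± 0.0266 in C57BL6/J and 0.0656 ± 0.0749 in LGXSM-33. The difference was −0.069 (limma SE 0.033; unadjusted P = 0.0746), the level in non-healers being 1.17-fold that in healers. The other autophagy mRNAs overlapped and did not share a direction. The differences were −0.0426 for *Atg7*, −0.0324 for *Becn1* and 0.0558 for the initiating kinase *Ulk1*.

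*Lep* encodes leptin, a hormone of fat cells. Its level was −0.0683 ± 0.149 in LG/J and −0.064 ± 0.134 in LGXSM-6, but 0.0238 ± 0.14 in MRL/MpJ, next to 0.0322 ± 0.182 in SM/J, 0.0551 ± 0.124 in C57BL6/J and 0.0352 ± 0.136 in LGXSM-33. MRL/MpJ was therefore 0.00839 from SM/J, with an SE of 0.0764, and stood with the non-healers as closely as they stood with each other. The difference was −0.077 (limma SE 0.0371; unadjusted P = 0.0765), or 1.19-fold higher in non-healers. Its signals ran from 6 to 19 in all strains, so a single unit at the median of 11 is worth 0.0378. Adiponectin (*Adipoq*) had the largest difference among the adipokines, −0.11, and overlapped: LG/J was at −0.259, but C57BL6/J, at −0.1, was below MRL/MpJ and LGXSM-6. The difference was −0.0254 without LG/J, −0.175 without LGXSM-6 and −0.169, with the groups apart, without C57BL6/J.

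**Figure D2:**
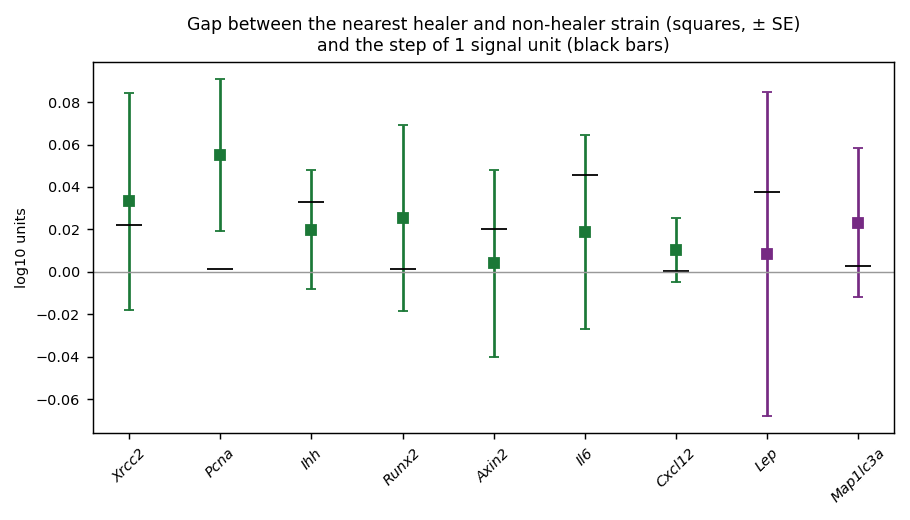
Distance in log10 units between the nearest healer and non-healer strain of each of the 9 mRNAs (squares; green, higher in healers; purple, lower), with the SE over assay replicates of the 2 strains. Black bars give what 1 more unit of signal is worth at the median signal of the mRNA. In 8 of the 9 the error bar reaches 0, and in 4 the square lies below the black bar.

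The separation of the 9 was thus one of strain means. In 0 of the 67 mRNAs did all assay replicates of the healers lie apart from all those of the non-healers. The gap between the nearest strains ran from 0.00419 to 0.0552 and was under its SE over assay replicates in 8 of the 9, and also for *Pcna* with sets of 3 as the unit. In *Ihh*, *Axin2*, *Il6* and *Lep* it was under the worth of 1 unit of signal. The nearest healer was MRL/MpJ in 6 of the 9 and LGXSM-6 in the other 3, and never LG/J. The ends of the order were mostly the same strains: LG/J was highest in 6 of the 7 higher mRNAs and lowest in both lower ones, and C57BL6/J was lowest in 5 of the 7. Over all 67 mRNAs LG/J was highest in 13 and lowest in 16, and C57BL6/J lowest in 16.

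The strains also form 3 pairs that share no sample: LG/J with SM/J, MRL/MpJ with C57BL6/J, and LGXSM-6 with LGXSM-33. Healer and non-healer differed in the same direction in all 3 pairs in 23 of the 67 mRNAs (34.3%), 15 higher and 8 lower in the healer, and the 9 are among these by construction. Some mRNAs would do so without any group effect, and this count was not tested. For *Pcna* the differences were 0.146, 0.133 and 0.0577 in the order given. For *Xrcc2* they were 0.0934, 0.286 and 0.0935, and for *Runx2* 0.133, 0.0667 and 0.084. In *Axin2* and *Cxcl12* the recombinant pair differed least, by 0.00917 and 0.0103, and in *Ihh* and *Lep* the pair of MRL/MpJ and C57BL6/J, by 0.0198 and −0.0313.

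With the values as deposited, the largest differences of the 67 were those of the proteases *Mmp3* (stromelysin) and *Mmp13* (collagenase 3), and neither separated the groups. *Mmp3* was at −0.0378 in LG/J, 0.183 in MRL/MpJ and 0.26 in LGXSM-6, and at −0.236 in SM/J, −0.26 in C57BL6/J and 0.223 in LGXSM-33. The non-healer line LGXSM-33 thus stood among the healers. The difference of 0.226 (limma SE 0.14; unadjusted P = 0.15) was 0.141 without C57BL6/J and 0.383 without LGXSM-33, where the groups were apart. It was 0.0495 as a ratio to the reference genes and 0.117 in the cross of LG/J and SM/J by itself. *Mmp13* was at 0.171, −0.0324 and 0.188 in LG/J, MRL/MpJ and LGXSM-6, and at −0.0266, −0.186 and 0.0361 in SM/J, C57BL6/J and LGXSM-33. Its difference was 0.167 (limma SE 0.0787; unadjusted P = 0.0708), and MRL/MpJ stood below 2 non-healers. The difference was 0.104 without C57BL6/J, and 0.238 with the groups apart without MRL/MpJ. Without normalization *Mmp13* separated the groups (0.5), and the difference of *Pcna* (0.568) exceeded those of *Mmp13* and *Mmp3* (0.369).

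The 6 cartilage matrix mRNAs had a median difference of 0.0909 (1.23-fold), against 0.00907 over all 67, and this was the highest of the 12 lists except with ratios to the reference genes and without normalization. All 6 had a higher mean in healers, beside 38 of all 67, and 0 of the 6 separated the groups. Without normalization 2 of the 6 did, *Acan* (0.467) and *Mia1* (0.397). The median was 0.0451 without LGXSM-6, 0.0536 without C57BL6/J and 0.0569 without SM/J. With ratios to the reference genes, which lowered the median of all mRNAs to −0.0792, 3 of the 6 had a higher mean and the median of the list was −0.0549, which is 0.0243 above that of all. Aggrecan (*Acan*) came closest by the pairs of a healer and a non-healer in order, 8 of 9. It was at 0.14 in LG/J, 0.0301 in MRL/MpJ, 0.171 in LGXSM-6, −0.102 in SM/J, −0.0737 in C57BL6/J and 0.136 in LGXSM-33, with MRL/MpJ below LGXSM-33. Its difference of 0.127 was 0.0692 with medians over assay replicates and 0.0822 without SM/J, and the groups were apart without LGXSM-33 (0.202) and without MRL/MpJ (0.169). *Mia1*, a secreted protein of chondrocytes, was at 0.208 in LG/J and 0.198 in LGXSM-6, but at −0.0883 in MRL/MpJ, below SM/J at 0.078. Its difference of 0.129 was 0.227, with the groups apart, without MRL/MpJ, and 0.0782, 0.0833 and 0.0834 without LG/J, LGXSM-6 and C57BL6/J. In *Col2a1*, the collagen of cartilage, the difference was 0.119 with an unadjusted P of 0.382.

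Among the transcription factors of cartilage, none separated the groups. *Cebpb* was nearest to a separation, with a difference of −0.108 and LGXSM-6, at −0.00892, just above LGXSM-33, at −0.0147. The difference was −0.0551 without LG/J and −0.0664 without C57BL6/J, and the groups were apart with medians over assay replicates (−0.14), without LGXSM-6 (−0.138) and without LGXSM-33 (−0.136). The TGF-beta and BMP list, with 8 members, had 4 higher and 4 lower means, and the largest difference was 0.0428, for the signal mediator *Smad1*. It was 0.0253 with medians over assay replicates, 0.00862 without LGXSM-6, 0.0169 without C57BL6/J and 0.0665 without LGXSM-33. In the cell cycle and cell death list none of the 4 separated the groups. The inhibitor *Cdkn1a* had a difference of −0.0326, of −0.0135 with medians over assay replicates and of −0.0101 without LG/J. Its groups were apart as ratios (−0.181) and without C57BL6/J (−0.0409). Besides the 9, 5 mRNAs had a single pair of strains out of order, and 20 had 4 or 5 of the 9 pairs with the healer above.

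**Figure D3:**
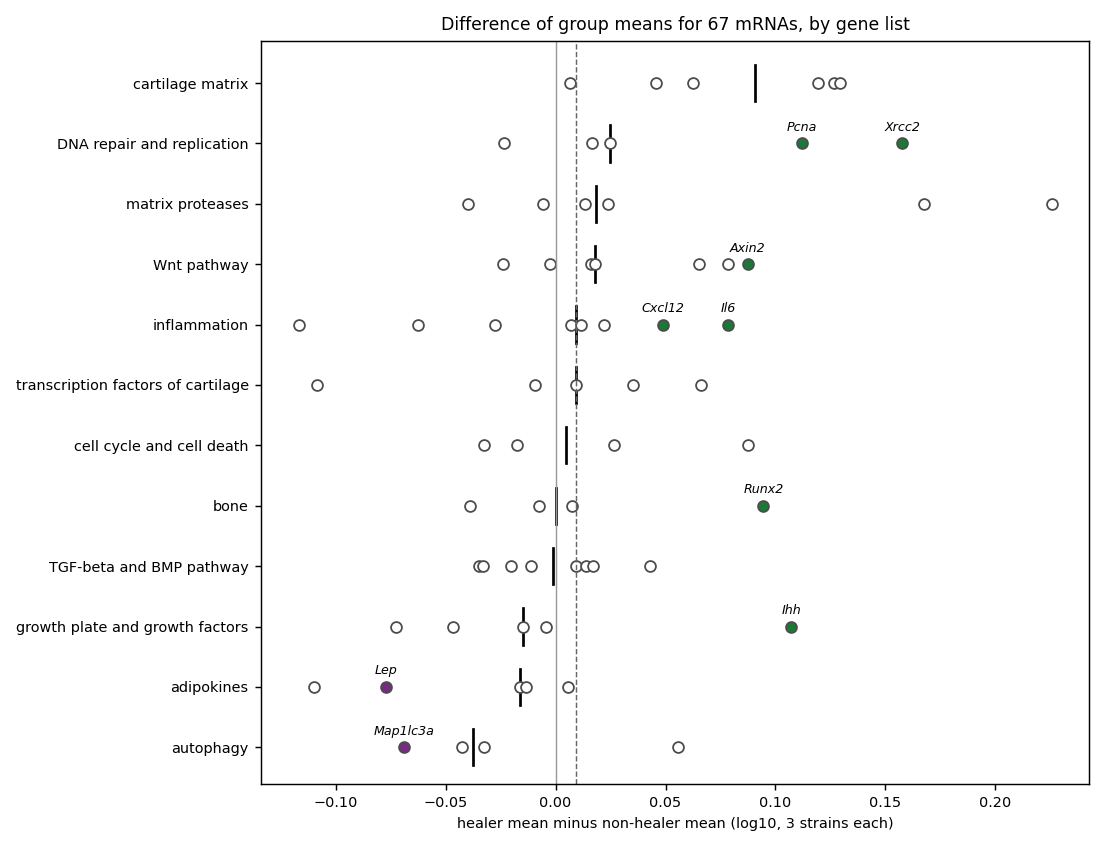
Healer mean minus non-healer mean (log10, horizontal axis) of each of the 67 mRNAs, by gene list. Filled points are the 9 mRNAs whose strains did not overlap (green, higher in healers; purple, lower), open points the others. Short bars give the median of a list and the dashed line the median of all, 0.00907. The cartilage matrix points all lie above 0 and are all open.

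The reference genes had higher mean signals in healers before normalization. *Hprt1*, a purine salvage enzyme, gave signals of 93.2, 163 and 236 in LG/J, MRL/MpJ and LGXSM-6 in the second panel, and of 41.3, 84.7 and 91.9 in SM/J, C57BL6/J and LGXSM-33 (antilog of the mean). Every healer lay above every non-healer. The group means differed by 0.35 on the log10 scale (2.24-fold; exact permutation P = 0.1). The nearest strains, LG/J (1.97 ± 0.109) and LGXSM-33 (1.96 ± 0.29, SD over assay replicates), almost met. In the first panel the difference was 0.382 for *Hprt1* and 0.395 for *Actb*, both with an exact permutation P of 0.2, and the lowest healer, LG/J, was below LGXSM-33 for *Hprt1* and below C57BL6/J for *Actb*. *Gapdh* differed by 0.181 in the first and 0.156 in the second panel (exact permutation P = 0.4 for each), and LGXSM-33 had the highest strain mean. The part of these differences in the results was not tested. SM/J varied most among its assay replicates of *Gapdh*, with signals from 346 to 4576.5 in the second panel.

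**Figure D4:**
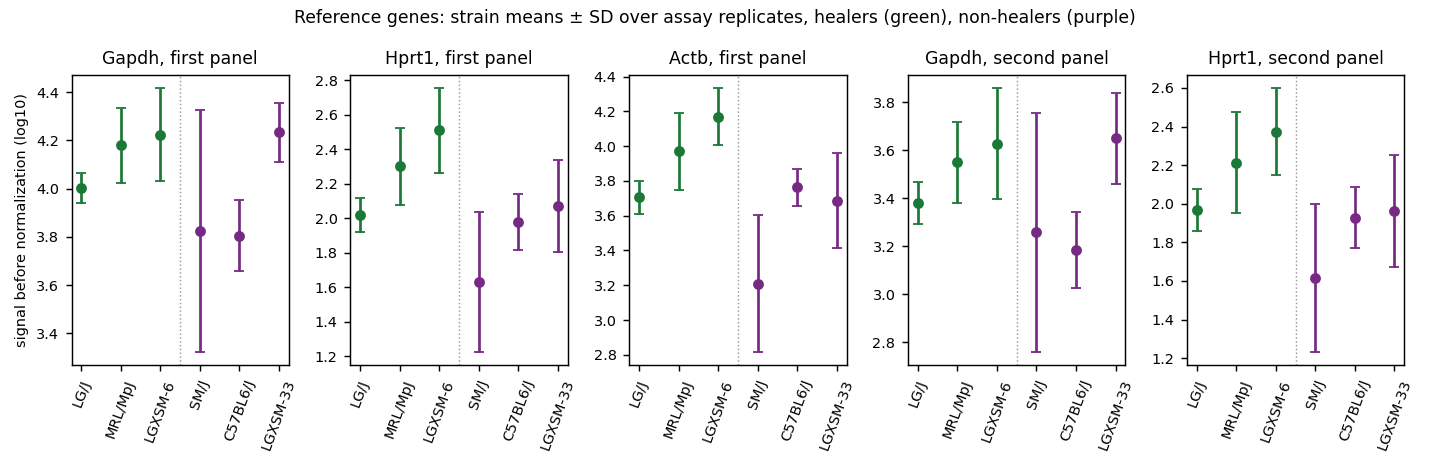
Signals of the reference genes before normalization (log10, vertical axis) in healer (green) and non-healer (purple) strains of each panel, as strain means with the SD over 8 to 12 assay replicates. *Hprt1* of the second panel is above all non-healers in each healer, and *Gapdh* and *Actb* overlap.

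Which mRNAs separated depended on how the target signals were set against the reference genes and on how assay replicates were averaged, except for *Pcna* and *Xrcc2*. With ratios to the reference genes, the median difference of all mRNAs was −0.0792, and without normalization it was 0.203. *Pcna* and *Xrcc2* separated the groups in the same direction in all alternatives that kept them, with differences of 0.316 and 0.206 as ratios and of 0.568 and 0.459 without normalization. *Cxcl12* separated as a ratio (0.118) and without normalization (0.437), but not with medians over assay replicates. *Map1lc3a* separated as a ratio (−0.207), whereas without normalization its difference was 0.046, which is below the median of all mRNAs. *Il6* and *Axin2* turned to −0.118 and −0.0265 as ratios, the first below and the second above the median of all mRNAs, and both overlapped with medians over assay replicates. *Axin2* overlapped also without normalization and in residuals recomputed here over all 8 strains on *Gapdh* and *Hprt1*, the reference genes of its panel (0.0841), and separated the groups in those over the 6 strains (0.0909). *Runx2* overlapped with ratios (0.0751) and with medians over assay replicates (0.0598), *Ihh* with ratios (0.0464) and with residuals recomputed over the 6 strains (0.0771). *Lep* overlapped with ratios (−0.301), without normalization (−0.0486) and with medians (−0.0532). The residuals recomputed over 8 strains departed by up to 0.0311 from the deposited strain means of the second panel, more than the gap of *Axin2*, *Ihh*, *Lep* or *Map1lc3a*.

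**Figure D5:**
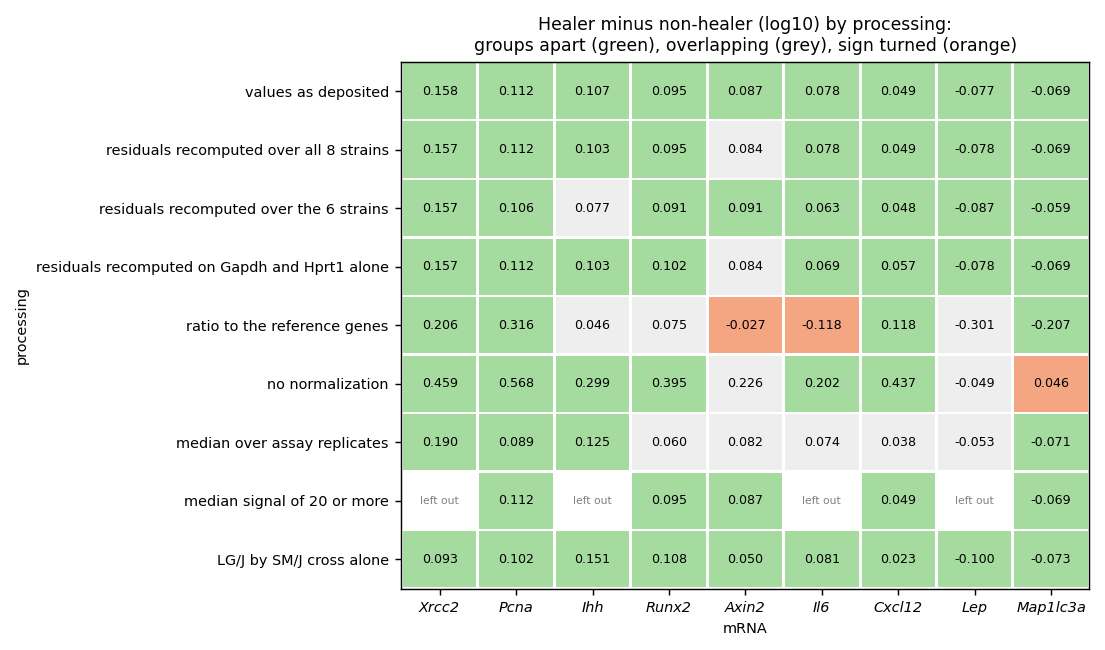
Healer minus non-healer difference (log10) of the 9 mRNAs under the processing named on the left. Green cells keep the 2 groups apart in the direction of the deposited values, grey cells overlap, orange cells have the opposite sign, and "left out" marks mRNAs under a median signal of 20. *Pcna* is green throughout and *Xrcc2* wherever it is not left out, and *Axin2* is green in 3 of its 8 alternatives.

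The tissue carried the mRNAs that mark its parts. Summed over *Col2a1*, *Acan*, *Comp*, *Mia1* and *Sox9*, the median signals before normalization were 6178 to 13491 in healers and 2363 to 7786 in non-healers. For the bone mRNAs *Col1a1*, *Bglap1* and *Runx2* the sums were 21251 to 34112 and 19155 to 27543. For *Col10a1* and *Ihh*, which hypertrophic and prehypertrophic chondrocytes express, the sums were 173 to 189 in healers and 83 to 173 in non-healers, so that the ranges only touched. The adipose mRNAs *Adipoq*, *Lep* and *Retn* summed to 34 to 69.5 and 40 to 79.2, and the myeloid *Mmp9* and *Ccl3* to 351.5 to 667 and 177.5 to 583.5. After normalization the mean of the marker levels was higher in healers for the cartilage (0.0829 against −0.00832), hypertrophic (0.0789 against 0.022) and bone lists (0.0288 against 0.0128), and lower for the adipose (−0.0476 against 0.0201) and myeloid lists (−0.0242 against 0.037). Only 1 of the 3 bone mRNAs had the higher mean in healers, whereas the members of each other list shared their direction. In the hypertrophic and myeloid lists, however, 1 member barely differed. The difference was 0.00677 for *Col10a1* beside 0.107 for *Ihh*, and −0.00561 for *Mmp9* beside −0.117 for *Ccl3*. The sums other than that of *Col10a1* and *Ihh* overlapped between the groups, and the part of the tissue's makeup in the 9 mRNAs was not tested.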

How the data were processed

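The authors deposited log10 signals and normalized log10 values of each assay replicate. The study's methods give the latter as residuals after a multiple regression on *Gapdh*, *Hprt1* and *Actb*. Residuals recomputed here over 8 strains took all of these for the first panel, and *Gapdh* and *Hprt1* for the second. They departed from the deposited strain means by up to 7.1e-06 in the first panel and 0.0311 in the second. The authors' fold changes and strain averages were not used. The normalized values were averaged per strain here. mRNAs counted as separated when the ranges of the 3 healer and 3 non-healer means did not overlap. limma 3.58.1 (R 4.3.3) tested the 67 mRNAs on strain means, with Benjamini-Hochberg adjustment and a threshold of 0.05. Single values were tested by exact permutation in Python 3.11.15 with numpy 2.4.6 and pandas 2.3.3, and the figures were drawn with matplotlib 3.10.9. With 3 strains a side only large differences can pass. Nothing in the files ties assay replicates to mice, and P values measure the spread between related strains. Of 70 symbols, 66 matched RefSeq and 4 an older name. The mRNAs described are the 9, the 5 others with the smallest limma P, the one with the largest difference in each list and the 3 largest of all, and others are named for their list. One mRNA is not reported by name. Strains, lists and rules were chosen with earlier results of these data known. The steps were tested on simulated data. Alternatives were residuals recomputed over 8 or 6 strains or on *Gapdh* and *Hprt1* alone, ratios, no normalization, medians, a median signal of 20 or more (48 mRNAs), leaving out each strain, the cross of LG/J and SM/J by itself, and for limma the assay replicates with strain as a random block (statmod 1.5.0), all 8 strains, each panel alone or, added after the data were seen, the 3 strain pairs as a block.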

Additional observations from a re-analysis of the deposited data

Results flagged for a closer look

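In 6 of the 67 mRNAs both healers of the cross of LG/J and SM/J (LG/J and LGXSM-6) lay on 1 side of both its non-healers, while MRL/MpJ and C57BL6/J differed the other way. The cross difference was 0.206 on the log10 scale for *Col2a1*, against −0.055 for MRL/MpJ minus C57BL6/J. It was 0.114 against −0.249 for *Bglap1* and 0.0317 against −0.00973 for the Wnt receptor *Fzd2*. In the other direction, it was −0.188 against 0.0467 for *Adipoq*, −0.081 against 0.0341 for *Atg7* and −0.0503 against 0.00288 for *Cdkn1a*. The difference between the cross and the pair was not tested, and each side of the pair is a single strain.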

How the results depend on the processing

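The 9 non-overlapping mRNAs became 8, 9 and 8 with residuals recomputed over 8 strains, over 6 strains and on *Gapdh* and *Hprt1* alone, sharing 8 of the 9 in each. They became 10 with medians over assay replicates (4 of the 9 shared), 13 without normalization (6 shared), 17 with ratios to the reference genes (4 shared), 5 of 48 with a median signal of 20 or more, and 20 in the cross of LG/J and SM/J by itself, where 2 strains face 2. Leaving out 1 strain gave 10 to 22, the most without LGXSM-33, 18 without LGXSM-6 and 17 without MRL/MpJ. Fewer strains overlap less easily, and the 9 are kept there by construction. In limma 0 mRNAs passed the adjustment in each of 18 alternatives, with a smallest adjusted P between 0.0536 (limma on assay replicates with the strain as a random block) and 0.969 (limma without LG/J). The 4 at an unadjusted P of 0.05 became 14 with ratios, 10 without normalization, 9 with assay replicates in blocks by strain, 2 with the filter on signal, and 0 to 11 without 1 strain (0 without LG/J, 0 without C57BL6/J, 2 without SM/J, 7 without MRL/MpJ, 11 without LGXSM-33). Among the 19 mRNAs described, signs changed with ratios for *Il6* (−0.118), *Axin2* (−0.0265), *Wnt16* (−0.116) and *Smad1* (−0.0168), and without normalization for *Map1lc3a* (0.046), *Ccl3* (0.0836), *Cebpb* (0.17), *Adipoq* (0.0354) and *Cdkn1a* (0.072), where the medians of all mRNAs were −0.0792 and 0.203. The cause was not tested. Medians in place of means kept the direction of every reference gene and separated *Hprt1* in the first panel too. The labels give the strains no replicate numbers. The 3 strain pairs as a block in limma, chosen after seeing the data, gave 0 mRNAs after adjustment (smallest adjusted P by limma 0.127) and 8 at an unadjusted P of 0.05. Signals were under a median of 20 for *Il6*, *Lep*, *Ihh* and *Xrcc2* among the 9, and for *Wnt16* among the others described.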

Other observations

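In the second panel the assay replicates of a strain come in consecutive sets of 3 that resemble each other. Over the 6 strains and 34 mRNAs, a median of 74% of the variance of normalized levels within strains lay between such sets, with a range of 21.3% to 98%, where sets alike in mean would hold about 25.9%. The study's methods name biological and technical replicates, and no column is labelled with its mouse.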
